A study of Mus musculus with 23 samples.

Results

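Docetaxel was compared with media in tumours of mice that had received an empty vector (EV). The comparison rests on 4 of the 23 bulk RNA libraries of the series, chosen by their labels alone, with EV docetaxel libraries 1 and 2 on one side and EV media libraries 1 and 2 on the other. The tumours grew in the flanks of male C57/BL6 mice aged 8 to 10 weeks from TC2Ras cells, a line made from TRAMP-C2 mouse prostate adenocarcinoma cells by lentiviral transfer of an activated H-ras. Every EV mouse received the control plasmid pTSTA-ctrl, 10 µg per tibialis anterior muscle, delivered by sonoporation, and the tumours were then exposed ex vivo. EV docetaxel tumours were exposed to docetaxel and EV media tumours to media. Further libraries were used only to show where docetaxel differed from them, namely EV tumours exposed to cabozantinib or to IL-27, and docetaxel and media libraries of mice given the IL-27 plasmid pTSTA-IL27pepL (IL27v). Levels in IL27v libraries of other exposures are quoted in places, without a test. The labels used here name neither the dose of docetaxel nor the length of exposure. They also do not state whether the replicates are different animals, so the p-values measure only how far these samples spread, and that spread may be technical.

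Docetaxel is a taxane that binds beta tubulin inside the microtubule wall and holds microtubules in the assembled state, which blocks mitotic spindles from turning over. Microtubules are built from dimers of alpha and beta tubulin. Cells read the pool of free dimers and adjust tubulin mRNA to it, a loop called tubulin autoregulation. When free dimers are plentiful, TTC5 binds the first residues of a tubulin chain as it leaves the ribosome and the mRNA is degraded. When taxanes draw dimers into polymer, tubulin mRNAs are spared. The signal that TTC5 reads is encoded by the first codons of alpha and beta tubulin genes, and gamma tubulin, which nucleates microtubules, does not carry it.

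The coding starts are shown because they carry that signal. Each line gives the first 30 coding bases of a tubulin from the GENCODE transcript set (GRCm38), 5′ to 3′, with the first 4 codons (12 bases) in capitals.
Tuba1a: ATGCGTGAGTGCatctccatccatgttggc
Tuba1b: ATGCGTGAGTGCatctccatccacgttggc
Tuba8: ATGAGGGAATGCatatcggtccatgtgggt
Tubb2a: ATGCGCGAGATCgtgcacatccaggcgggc
Tubb2b: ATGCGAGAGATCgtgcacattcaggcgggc
Tubb3: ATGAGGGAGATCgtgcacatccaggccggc
Tubb4b: ATGAGGGAGATCgtgcacctgcaggctggg
Tubg1: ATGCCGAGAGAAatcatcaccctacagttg
The beta tubulin stretches lie within a single exon, at chr13:34077900-34077929 on the minus strand for Tubb2a, chr13:34130204-34130233 on the minus strand for Tubb2b, chr8:123411606-123411635 on the plus strand for Tubb3 and chr2:25224561-25224590 on the minus strand for Tubb4b. The alpha tubulin stretches span an intron, and their first coding bases are at position 98953453 of chromosome 15 (Tuba1a, minus strand), position 98934335 of chromosome 15 (Tuba1b, minus strand) and position 121210834 of chromosome 6 (Tuba8, plus strand). The Tubg1 stretch is at chr11:101120194-101120223 on the plus strand. Among 11 tested alpha and beta tubulins compared in this way the 12 opening bases took 8 different forms. The forms were taken from these 11 tubulins, which are therefore among the genes that open with them. Of 21590 genes with a coding sequence, 12 (0.0556%) opened with any of these 8 forms. Of the 12, 1 had a symbol that does not begin with Tub. The coding sequences of Tuba1a and Tuba1b were 98.3% identical and those of Tubb2a and Tubb2b 96.5% identical, so reads of close tubulins may have been split between them in the authors' counting, and values of single tubulins are uncertain to that extent.

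The docetaxel libraries held 68874311 and 66773701 counts and the media libraries 76364679 and 83088346 counts. Levels are counts relative to the library total (CPM) after TMM scaling over all 23 libraries, where 1 CPM stood for 60.1 to 84.9 counts in these 4 libraries. Ribosomal RNA genes took 0.54% and 0.34% of counts in docetaxel and 0.29% and 0.16% in media. EV docetaxel 2 stood apart. Across genes its log2 levels correlated at 0.966 with EV docetaxel 1 and at 0.957 and 0.942 with the media libraries, whereas EV docetaxel 1 correlated at 0.986 and 0.984 with the media libraries and these at 0.982 with each other. The median deviation of EV docetaxel 2 from the mean of the 4 libraries ran from -0.41 in the quintile of genes with the lowest GC content to 0.44 in the quintile with the highest (log2), while that of EV docetaxel 1 ran from 0.10 to -0.03. The difference between docetaxel and media had a median of -0.38 in the lowest and 0.52 in the highest GC quintile, and of 0.60 in the shortest and -0.38 in the longest quintile by exonic length. GC content and length therefore moved with the comparison. Some values below are followed by their value after both trends were removed with offsets, or without EV docetaxel 2. Values given without either are not adjusted for these trends.

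**Figure D1:**
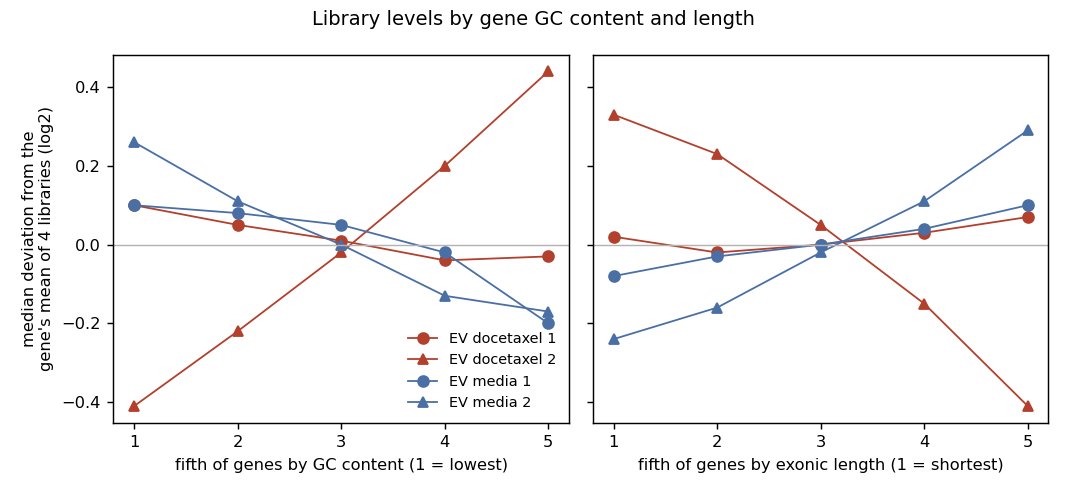
Median deviation of each library from the gene's mean over the 4 libraries (log2, vertical axis) in quintiles of the tested genes by GC content (left) and exonic length (right), with docetaxel libraries in red and media libraries in blue. EV docetaxel 2 (red triangles) rises from -0.41 to 0.44 with GC content, whereas EV docetaxel 1 (red circles) stays between -0.04 and 0.10.

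The label names a prostate adenocarcinoma, and defining markers of prostate epithelium were absent. Pbsn, Tmprss2 and Hoxb13 were at 0 in all 4 libraries, and Epcam reached at most 0.1996 CPM. Vim, an intermediate filament of mesenchymal cells, stood at 5494 and 6394 CPM in docetaxel and 4892 and 3584 CPM in media. Hras, whose activated form the line carries, was at 20.9 and 52.6 CPM in docetaxel and 21.8 and 14.0 CPM in media, and the groups overlapped. Whether these counts of the mouse gene include transcripts of the introduced H-ras was not tested. Skeletal muscle genes summed to 18.4 and 3.34 CPM in docetaxel and 1.90 and 1.30 CPM in media. The T cell genes Cd3e and Cd8a were at 0 in all 4.

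No gene passed the adjusted test as higher in docetaxel, and 1 gene passed as lower. In edgeR's quasi-likelihood test of the 4 libraries, 1 of 17646 genes (0.00567%) passed a Benjamini-Hochberg adjusted p of 0.05. At an unadjusted p under 0.05 there were 728 genes higher (4.13%) and 228 lower (1.29%) in docetaxel. The docetaxel libraries both lay above the media libraries in 21.5% of genes and both below in 21.1%, and the median difference over all genes was 0.01 on the log2 scale. With the spread pooled over all 23 libraries no gene passed, with 719 at an unadjusted p under 0.05, and DESeq2 on the same 4 libraries called 34 genes higher and 9 lower. The replicate number as a block gave 35. With 1 library left out the count was 28 without EV media 1, 47 without EV media 2, 53 without EV docetaxel 1 and 7 without EV docetaxel 2. These fits leave 1 library in an arm, which is assumed to vary like the libraries of the other groups in the fit, so a higher count is not a gain in calls, here and in the comparisons below. With 2 libraries against 2, an exact two-sided permutation test of a single value cannot go below p = 0.333.

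The gene called lower was Rab43, which encodes a small GTPase of vesicle transport (chromosome 6, 87788853 to 87812164, minus strand). It had 0.0867 and 0.0832 CPM in docetaxel, against 27.6 and 29.3 CPM in media, a log2 difference of -8.35 ± 0.49 (SE, edgeR adjusted p = 0.00534). The same strand carries the predicted gene Gm45140 (87788861 to 87835795), which spans nearly the whole of Rab43 and had 36.8 and 52.5 CPM in docetaxel, against 0 and 6.51 CPM in media. The docetaxel libraries were low for Rab43 and high for Gm45140, and the media libraries the reverse. Summed, the locus had 36.9 and 52.6 CPM in docetaxel and 27.6 and 35.8 CPM in media, a log2 difference of 0.51 ± 0.35 (edgeR adjusted p = 0.714). Outside the 4 libraries, IL27v media 1 showed 0.151 CPM of Rab43 with 32.2 CPM of Gm45140, and both IL27v docetaxel libraries had Rab43 at 27.3 and 27.2 CPM. How the authors' counting assigned reads that both genes share was not tested.

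Another pair of loci followed the same form without passing the test. Srcap, the ATPase of a complex that places the histone variant H2A.Z, had 6.32 and 3.61 CPM in docetaxel, against 84.4 and 96.2 CPM in media (log2 -4.17 ± 0.42, edgeR adjusted p = 0.131). Its overlapping same-strand neighbour Gm42715 had 80.6 and 72.8 CPM in docetaxel and 16.4 and 31.97 CPM in media, and their sum of 87.0 and 76.4 CPM in docetaxel and 100.8 and 128.2 CPM in media differed by -0.47 ± 0.31. AL732309.1 had 5.33 and 7.90 CPM in docetaxel, against 0.131 and 0.141 CPM in media (log2 5.60 ± 0.60, edgeR adjusted p = 0.131). It lies on the strand of Ndor1, an oxidoreductase gene, and the sum of both was 12.9 and 23.2 CPM in docetaxel and 16.7 and 17.5 CPM in media, with overlapping groups. With the genes of these 3 loci summed, no gene of 17643 passed the test, and 952 had an unadjusted p under 0.05.

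**Figure D2:**
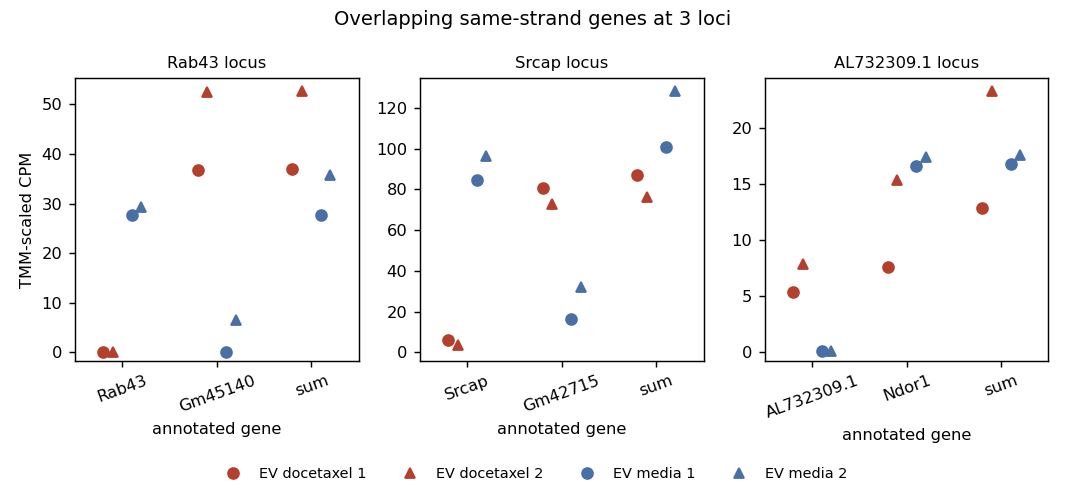
TMM-scaled CPM of overlapping same-strand genes and of their sum at 3 loci, with EV docetaxel libraries in red at the left of each item and EV media libraries in blue at the right. Rab43 is near 0 in docetaxel where Gm45140 is at 36.8 and 52.5 CPM, and the summed Rab43 levels of the groups lie closer to each other than those of either gene.

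Alpha and beta tubulin transcripts lay above media in nearly every tested member, though none passed the adjusted test. Of 16 members, 12 had enough counts to be tested, and in 10 of these both docetaxel libraries exceeded both media libraries, against 21.5% of all genes. Tuba1b and Tubb4a overlapped. There were 7 with an unadjusted p under 0.05 and higher in docetaxel, against 4.13% of all genes, and 0 lower. The median log2 difference was 1.17, against 0.01 over all genes. Tuba3a, Tuba3b, Tubal3 and Tubb1 did not pass the filter on low counts. Summed over the family, tubulins made up 4993 and 7217 CPM in docetaxel and 3963 and 3290 CPM in media. In bulk tumour RNA, more tubulin RNA per cell and a larger share of cells rich in tubulin cannot be told apart.

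Among beta tubulins, Tubb6, an isotype found in many dividing tissues (chromosome 18), had 476 and 776 CPM in docetaxel, against 247 and 250 CPM in media. The lower docetaxel library was well clear of the higher media library, and the log2 difference was 1.35 ± 0.35 (SE, n = 2 each, edgeR adjusted p = 0.713). Tubb2a had 44.1 and 76.1 CPM in docetaxel, against 23.3 and 18.3 CPM in media (log2 1.54 ± 0.39). Tubb2b, its neighbour on chromosome 13, had 22.6 and 45.5 CPM in docetaxel, against 13.4 and 7.30 CPM in media (log2 1.73 ± 0.49). In both genes EV docetaxel 2 was the highest library and the groups did not overlap. Tubb4b, a broadly expressed isotype, had 274 and 423 CPM in docetaxel, against 156 and 136 CPM in media (log2 1.26 ± 0.34). Tubb3, a neuronal isotype that many tumours also express, had 27.1 and 36.3 CPM in docetaxel, against 17.9 and 8.89 CPM in media (log2 1.25 ± 0.44). For each of Tubb2a, Tubb2b, Tubb3 and Tubb4b the adjusted p was 0.713.

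The most abundant beta tubulin, Tubb5, had 1577 and 1973 CPM in docetaxel, against 1337 and 1014 CPM in media (log2 0.60 ± 0.32), and its 95% interval of -0.14 to 1.35 included 0. Tubb4a, a brain isotype, had 4.36 and 5.41 CPM in docetaxel and 5.51 and 3.43 CPM in media, with overlapping groups and an interval of -0.95 to 1.22.

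Among alpha tubulins, Tuba1a, a major isotype of developing tissue, had 815 and 1193 CPM in docetaxel, against 520 and 423 CPM in media (log2 1.10 ± 0.33). Tuba1b, the usual isotype of dividing cells, had 1101 and 1672 CPM in docetaxel and 1103 and 939 CPM in media. EV docetaxel 1 matched EV media 1 there, so the groups overlapped (log2 0.45 ± 0.33, interval -0.32 to 1.23). Tuba1c had 570 and 879 CPM in docetaxel, against 472 and 440 CPM in media (log2 0.68 ± 0.33), and Tuba4a had 80.2 and 132 CPM in docetaxel, against 66.7 and 50.3 CPM in media (log2 0.87 ± 0.37). Both were separate by group, by a smaller margin than Tuba1a. Tuba8 was scarce, with 1.31 and 4.09 CPM in docetaxel and 0.446 and 0.494 CPM in media (log2 2.53 ± 0.75).

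**Figure D3:**
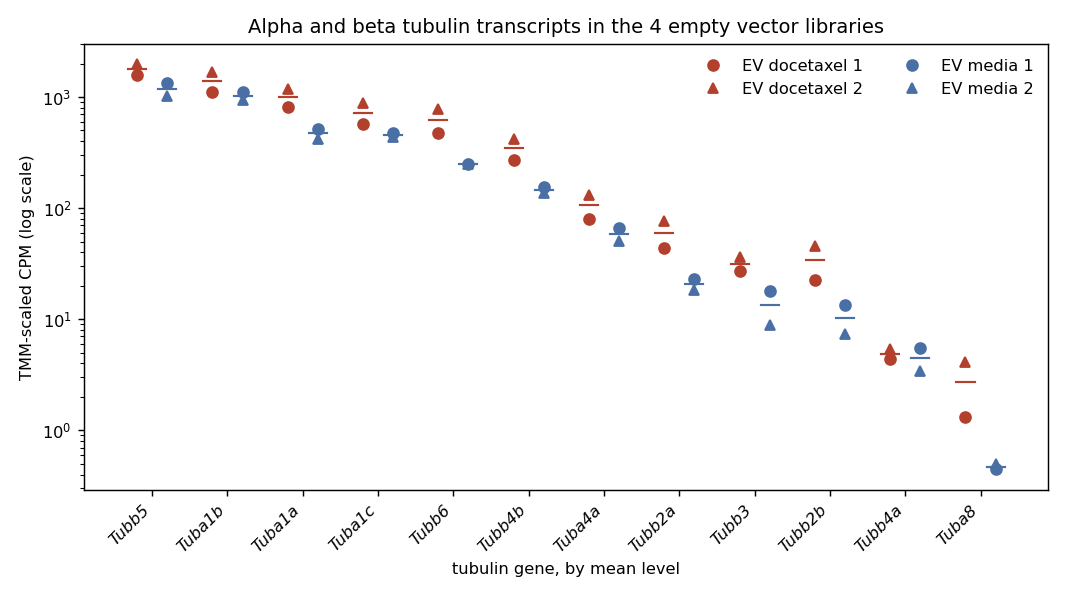
TMM-scaled CPM (log axis) of the 12 tested alpha and beta tubulins in each EV library, with docetaxel in red at the left and media in blue at the right of each gene, and short lines at the mean of each pair. Docetaxel points lie above the media points in all genes but Tuba1b and Tubb4a, and EV docetaxel 2 (red triangles) is above EV docetaxel 1 in each.

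Per kilobase of exon Tuba1b led with 587 and 892 CPM per kilobase in docetaxel and 588 and 501 in media. Next were Tubb5 with 474 and 593 in docetaxel and 402 and 305 in media, and Tuba1a with 452 and 662 in docetaxel and 289 and 234 in media. In media Tubb5 was above Tuba1a, while in docetaxel the ranges of all 3 overlapped and Tuba1a exceeded Tubb5 in library 2. Tuba1c (249 and 384 in docetaxel, 206 and 192 in media) and Tubb6 (195 and 319 in docetaxel, 101 and 102 in media) followed, with overlapping docetaxel ranges. Tubb4b reached 131 and 203 CPM per kilobase in docetaxel, where its upper value exceeded the lower one of Tubb6, and 74.9 and 65.2 in media. All other isotypes were under 50 in every library.

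The tubulin values were smaller once GC content and length were taken into account, and smaller without EV docetaxel 2. The tested tubulins had a median GC content of 55.2% and a median exonic length of 2246 bases. The genes of the quintiles that hold these values had median differences of 0.21 by GC content and 0.30 by length. That GC median lay at the upper edge of its quintile (51.55% to 55.27%). The highest GC quintile, which holds Tuba1b, Tubb3, Tubb4a and Tubb6 among others, had a median difference of 0.52. With both offsets the tubulin median was 0.60, against -0.01 over all genes, and Tubb2b (1.41 ± 0.32), Tubb2a (0.88 ± 0.20), Tubb6 (0.81 ± 0.19), Tubb4b (0.70 ± 0.18) Tuba1a (0.62 ± 0.19) and Tuba8 (2.03 ± 0.64) stayed above 0 by more than 3 SE, with adjusted p of 0.841 each. Tuba1b turned to -0.16 and Tubb4a to -0.47. Without EV docetaxel 2 the median was 0.85, against -0.02 over all genes, and Tubb2b stood at 1.13, Tubb2a at 1.09, Tubb6 at 0.94 and Tubb4b at 0.91.

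The remaining tubulins do not form the alpha-beta dimer. Tubg1, gamma tubulin, had 69.2 and 107 CPM in docetaxel and 67.7 and 51.4 CPM in media (log2 0.57 ± 0.36), and -0.03 with both offsets. Tubd1 and Tube1, the delta and epsilon tubulins of centrioles, differed by -0.23 ± 0.49 and -0.17 ± 0.37. The median of the 4 gamma, delta and epsilon genes was -0.07. Ttc5 itself had 23.3 and 26.9 CPM in docetaxel and 27.8 and 29.02 CPM in media (log2 -0.16 ± 0.32).

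Among 20 genes of tubulin folding, autoregulation and modification, 6 lay above media and 2 below without overlap, against 21.5% and 21.1% of all genes, and the median was 0.17. Tbcc, a cofactor of tubulin dimer assembly, had 6.30 and 10.4 CPM in docetaxel, against 2.36 and 2.99 CPM in media (log2 1.65 ± 0.46, 0.50 with both offsets). Svbp, a partner of the enzymes that remove the terminal tyrosine of alpha tubulin, had 8.61 and 16.5 CPM in docetaxel, against 6.31 and 3.53 CPM in media (log2 1.36 ± 0.50). Microtubule-associated proteins had 2 of 19 tested members above media and 8 below, against the same shares, and a median of -0.47. Their median exonic length of 7963 bases was in the longest quintile of genes, where all genes had a median of -0.38, and with both offsets the list's median was -0.06. Map1s, a microtubule-bundling protein, had 44.1 and 73.9 CPM in docetaxel and 9.08 and 36.3 CPM in media (log2 1.40 ± 0.62). Eml4, which stabilises microtubules, had 30.9 and 17.5 CPM in docetaxel and 38.6 and 47.6 CPM in media (log2 -0.82 ± 0.38). Stmn1, which binds free tubulin dimers, had 66.3 and 122 CPM in docetaxel and 82.6 and 40.01 CPM in media, with overlapping groups.

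Of 28 mitotic genes, 7 lay above media and 6 below, against 21.5% and 21.1% of all genes, with a median of -0.05, and none had an unadjusted p under 0.05. Mki67, a proliferation marker, had 248 and 119 CPM in docetaxel and 261 and 299 CPM in media (log2 -0.60 ± 0.40), and EV docetaxel 1 was close to the media libraries. Top2a, which untangles DNA before division, had 381 and 234 CPM in docetaxel and 506 and 556 CPM in media (log2 -0.77 ± 0.34). Cenpf, a kinetochore protein, differed by -0.82 ± 0.40. Birc5, the chromosomal passenger survivin, had 93.1 and 129 CPM in docetaxel and 74.9 and 48.1 CPM in media (log2 0.86 ± 0.37). Cdc20, an activator of the anaphase-promoting complex, differed by 0.82 ± 0.39 and Ccnb1, cyclin B1, by -0.12 ± 0.38. With both offsets Mki67, Top2a and Cenpf stood at -0.22, -0.20 and -0.20, Birc5 at 0.92 and Ccnb1 at 0.16. Of 22 replication genes, 4 lay above media and 7 below, against the same shares, with a median of -0.01, and Cdt1, which licenses replication origins, had 77.3 and 92.5 CPM in docetaxel and 30.0 and 59.7 CPM in media (log2 0.94 ± 0.40).

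Of 23 p53 targets, 5 lay above media and 4 below, near the 21.5% and 21.1% of all genes, with a median of 0.01. Cdkn1a, the cell-cycle inhibitor p21, had 161 and 305 CPM in docetaxel and 173 and 135 CPM in media (log2 0.61 ± 0.39). Only EV docetaxel 2 was above the media libraries, and the difference was 0.07 without it. Mdm2, the ligase that degrades p53, had 106 and 59.7 CPM in docetaxel and 111 and 127 CPM in media (log2 -0.51 ± 0.37). Among 14 BCL2 family genes 6 were above media and 1 below, against the same shares, with a median of 0.24 and of -0.01 with both offsets. Bok, a pro-apoptotic member, had 16.4 and 32.2 CPM in docetaxel, against 13.7 and 9.47 CPM in media (log2 1.07 ± 0.44), and Bax, which opens the mitochondrial membrane, differed by 0.99 ± 0.51 with overlapping groups. Bbc3, the p53 target PUMA, had 2.501 and 5.09 CPM in docetaxel and 0.971 and 2.13 CPM in media (log2 1.31 ± 0.63). With both offsets Bok stood at -0.03, Bax at 0.01 and Bbc3 at -0.02. Cdkn2a, the locus of the p16 and p19 inhibitors, had 62.1 and 138 CPM in docetaxel, against 29.9 and 34.6 CPM in media (log2 1.64 ± 0.44), 0.56 with both offsets and 0.95 without EV docetaxel 2.

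Of 9 tested genes of taxane transport and metabolism, 1 lay above media and 4 below, against 21.5% and 21.1% of all genes. Abcb1b, 1 of the mouse genes for P-glycoprotein, had 81.1 and 66.9 CPM in docetaxel and 89.8 and 108 CPM in media (log2 -0.40 ± 0.31), and its counterpart Abcb1a had 13.0 and 8.47 CPM in docetaxel and 11.3 and 18.4 CPM in media (log2 -0.45 ± 0.41). Abcc1, another efflux pump, had 203 and 136 CPM in docetaxel and 260 and 240 CPM in media (log2 -0.55 ± 0.33). With both offsets Abcb1b stood at 0.09, Abcb1a at -0.11 and Abcc1 at -0.29, and the median of the 9 genes was 0.09, against -0.15 without offsets.

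Immediate early and AP-1 genes, which respond within minutes to growth factors and stress, lay mostly above media before the offsets. Of 16, 11 lay above media and none below, against 21.5% and 21.1% of all genes. There were 6 higher at an unadjusted p under 0.05, against 4.13% of all genes, and the median was 0.66. Jund, an AP-1 subunit, had 9.38 and 18.7 CPM in docetaxel, against 1.30 and 4.00 CPM in media (log2 2.42 ± 0.63, edgeR adjusted p = 0.713). Ier2 had 20.1 and 40.04 CPM in docetaxel, against 3.52 and 14.3 CPM in media (log2 1.78 ± 0.66), and Ier3 had 515 and 816 CPM in docetaxel, against 335 and 325 CPM in media (log2 1.03 ± 0.34). In each gene both media libraries were lower, and EV docetaxel 2 was highest. Fosb differed by 1.02 ± 0.36, whereas Egr1 had 158 and 149 CPM in docetaxel and 122 and 155 CPM in media. With both offsets the list's median was 0.14, Jund stood at 1.04, Fosb at 0.80, Ier2 at 0.69 and Ier3 at 0.31. Among 11 genes of MAPK feedback, where the median was -0.01, Phlda1 had 102 and 139 CPM in docetaxel, against 35.6 and 54.6 CPM in media (log2 1.44 ± 0.36, 0.73 with both offsets).

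None of 20 genes of the integrated stress and unfolded protein response lay above media without overlap and 3 lay below, against 21.5% and 21.1% of all genes, and the median was 0.02. Ddit3, the transcription factor CHOP, had 190 and 397 CPM in docetaxel and 228 and 234 CPM in media (log2 0.36 ± 0.40). Its difference was -0.11 with both offsets and -0.28 without EV docetaxel 2. Atf3 had 56.2 and 85.6 CPM in docetaxel and 56.2 and 50.6 CPM in media (log2 0.42 ± 0.35). Hspa1a, an inducible heat shock protein with a near copy in Hspa1b, had 4.57 and 5.54 CPM in docetaxel and 1.88 and 4.34 CPM in media (log2 0.72 ± 0.53). Mt1, a metallothionein that binds zinc, had 118 and 241 CPM in docetaxel, against 38.9 and 90.3 CPM in media (log2 1.49 ± 0.51, 0.66 with both offsets). Of 18 genes of hypoxia and glycolysis, 7 lay below media and none above, against 21.1% and 21.5% of all genes, with a median of -0.17. Hk2, a glycolytic hexokinase, had 106 and 76.6 CPM in docetaxel and 133 and 146 CPM in media (log2 -0.60 ± 0.32).

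Genes of MHC class II presentation lay above media in 5 of 7 members, against 21.5% of all genes, with a median of 1.09, at low levels. They summed to 39.1 and 41.5 CPM in docetaxel, against 19.3 and 15.7 CPM in media, and the docetaxel libraries were close to each other here. The sums were 72.8 and 16.3 CPM in EV cabozantinib and 152 and 39.1 CPM in EV ex vivo IL-27. The docetaxel sums thus lay within the range of EV libraries without docetaxel. Cd74, the invariant chain that escorts class II molecules, had 19.2 and 20.2 CPM in docetaxel, against 9.10 and 5.84 CPM in media (log2 1.41 ± 0.39). H2-Aa, a class II alpha chain, had 9.77 and 6.34 CPM in docetaxel, against 2.90 and 3.39 CPM in media (log2 1.37 ± 0.44), and H2-Eb1, a beta chain, differed by 1.40 ± 0.52. The edgeR adjusted p of each was 0.713. With both offsets the list's median was 0.61, and without EV docetaxel 2 it was 0.98. H2-Aa stood at 1.41 with both offsets, and its GC content of 48.9% was lower than that of Cd74 (56.3%) and H2-Eb1 (54.3%). Dendritic cell genes summed to 23.3 and 15.6 CPM in docetaxel and 14.2 and 19.0 CPM in media, B cell genes to 1.73 and 2.68 CPM in docetaxel and 1.33 and 0.648 CPM in media, and macrophage genes to 548 and 808 CPM in docetaxel and 672 and 652 CPM in media. The part of these cells in the class II levels was not tested. Of 13 genes of MHC class I presentation, 5 lay above media and 1 below, against 21.5% and 21.1% of all genes, with a median of 0.36 and of 0.02 with both offsets. Psmb10, an immunoproteasome subunit, had 16.4 and 25.9 CPM in docetaxel, against 8.79 and 8.68 CPM in media (log2 1.28 ± 0.38, 0.44 with both offsets).

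Of 18 macrophage genes, 5 lay above media and 4 below, near the 21.5% and 21.1% of all genes, with a median of 0.18. C1qb, a complement chain made by tissue macrophages, had 27.9 and 44.9 CPM in docetaxel, against 20.5 and 14.9 CPM in media (log2 1.05 ± 0.39, 0.15 with both offsets). Itgam, the integrin CD11b, had 11.1 and 10.4 CPM in docetaxel, against 18.4 and 25.0 CPM in media (log2 -0.998 ± 0.35, -0.90 with both offsets). Mmp12, macrophage elastase, had 131 and 86.8 CPM in docetaxel, against 174 and 307 CPM in media (log2 -1.12 ± 0.39). Of 13 genes of the interferon gamma response, 7 lay below media and 1 above, against 21.1% and 21.5% of all genes, with a median of -0.41, and Cd274, which encodes PD-L1, had 10.4 and 7.17 CPM in docetaxel and 16.8 and 14.8 CPM in media (log2 -0.83 ± 0.38). Type I interferon genes had a median of -0.24, with 7 of 25 below and 2 above, against the same shares. Among inflammatory cytokines, Cxcl1, a neutrophil attractant, had 65.2 and 69.3 CPM in docetaxel, against 37.9 and 32.9 CPM in media (log2 0.94 ± 0.32, 0.96 with both offsets), and Csf3, which encodes G-CSF, had 2.41 and 7.54 CPM in docetaxel, against 0.958 and 1.07 CPM in media (log2 2.30 ± 0.66). Neutrophil genes themselves summed to 13.2 and 10.6 CPM in docetaxel and 16.0 and 13.6 CPM in media. T and NK cell genes were at the edge of detection, with 10 of 24 tested and sums of 9.55 and 5.52 CPM in docetaxel and 5.40 and 6.10 CPM in media.

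**Figure D4:**
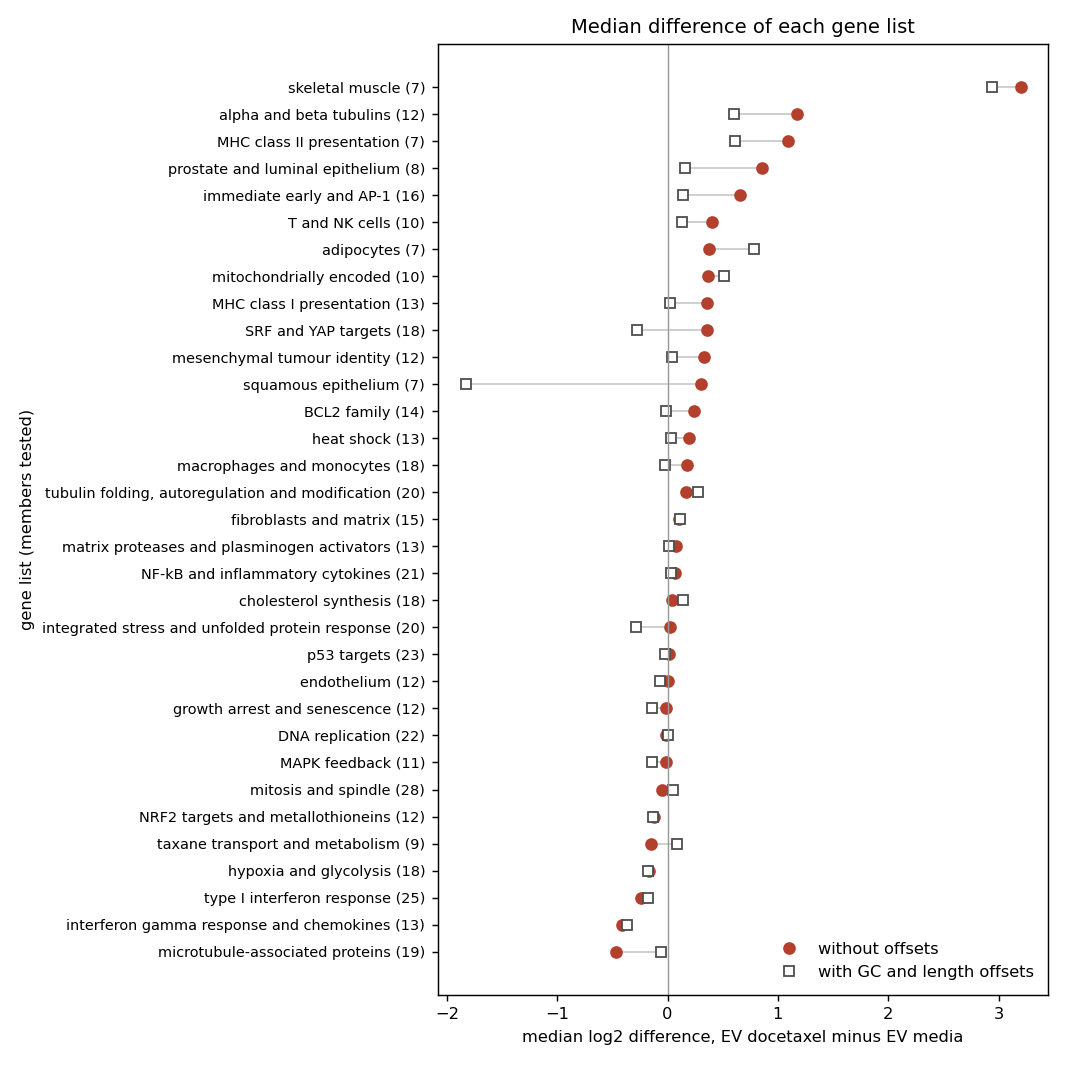
Median log2 difference of EV docetaxel minus EV media for the 33 gene lists with at least 7 tested members (members tested in brackets), without offsets (red circles) and with GC and length offsets (open squares). Tubulins and MHC class II genes keep medians of 0.60 and 0.61 with offsets, whereas the median of immediate early genes drops to 0.14 and that of microtubule-associated proteins moves from -0.47 to -0.06, and the skeletal muscle and squamous lists rest on genes that are mostly near 0.

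None of the genes named in this paragraph passed the test. Those nearest the top of the ranking and higher in docetaxel were mostly short and rich in GC. By the naming rule those higher in docetaxel include Rplp1, a protein of the ribosomal stalk, with 473 and 1124 CPM in docetaxel, against 173 and 222 CPM in media (log2 2.03 ± 0.45, 0.74 with both offsets). Mrpl52, a mitochondrial ribosomal protein, differed by 2.31 ± 0.52, Dpm3, a subunit of the enzyme that makes the mannose donor of glycoproteins, by 2.38 ± 0.52, and Mpst, a sulfurtransferase, by 1.85 ± 0.44. Hic1, a transcriptional repressor, had 8.33 and 10.5 CPM in docetaxel, against 2.40 and 3.12 CPM in media (log2 1.79 ± 0.43, 1.59 without EV docetaxel 2). Those lower include Plekha1, a phosphoinositide-binding adaptor, with 21.6 and 18.3 CPM in docetaxel, against 46.4 and 45.9 CPM in media (log2 -1.20 ± 0.32, -0.67 with both offsets). Pfkfb2, which makes an activator of glycolysis, differed by -1.37 ± 0.45 and Hdac9, a histone deacetylase, by -1.62 ± 0.52. These lower genes were longer, at 8527 bases for Plekha1, 7254 for Pfkfb2 and 14665 for Hdac9. Their GC contents were 44.6%, 46.8% and 47.4%. Some families were chosen after their values were seen. Cytosolic ribosomal proteins had a median of 0.83 over 97 genes (29 above media, 3 below), mitochondrial ribosomal proteins of 0.68 over 78 (38 above, 0 below) and nuclear-encoded respiratory chain genes of 0.93 over 83 (45 above, 2 below), while 349 zinc finger genes named Zfp had a median of -0.45 (35 above, 117 below), against 21.5% of all genes above and 21.1% below. The median GC contents of the 4 families were 51.8%, 50.4%, 51.3% and 45%, and their median exonic lengths 1840, 2394, 1569 and 4677 bases. With both offsets the medians were 0.41, 0.47, 0.54 and -0.19, and without EV docetaxel 2 they were 0.23, 0.23, 0.36 and -0.17.

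Mitochondrially encoded transcripts, which are short but poor in GC, lay above media in 9 of 10 members, against 21.5% of all genes, with a median of 0.37. They summed to 26490 and 25850 CPM in docetaxel and 20950 and 21600 CPM in media, so that the docetaxel libraries lay close together. Mt-Atp6, a subunit of the ATP synthase listed as mt-Atp6, had 3062 and 3763 CPM in docetaxel, against 2190 and 2131 CPM in media (log2 0.67 ± 0.29). The median was 1.02 with the GC offset alone, 0.51 with both offsets and 0.30 without EV docetaxel 2.

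Fibroblast and matrix genes summed to 8314 and 7654 CPM in docetaxel and 7403 and 7949 CPM in media, and endothelial genes to 258 and 233 CPM in docetaxel and 266 and 242 CPM in media, so both sets of sums overlapped. Among other tissues' markers, Sprr1a, a precursor of the cornified envelope of squamous cells, had 698 and 1877 CPM in docetaxel, against 167 and 485 CPM in media (log2 2.00 ± 0.62), while the squamous keratins Krt5, Krt14 and Krt6a were at most 1.38 CPM in any of the 4 libraries. Krt8, a keratin of simple epithelia, had 28.1 and 123 CPM in docetaxel and 26.7 and 17.7 CPM in media, and its difference of 1.77 ± 0.65 was 0.34 without EV docetaxel 2. Hba-a1, an alpha globin of red cells that may share reads with its near copy Hba-a2, had 10.2 and 20.5 CPM in docetaxel, against 3.62 and 4.57 CPM in media (log2 1.92 ± 0.46), whereas the erythroid list summed to 42.8 and 78.9 CPM in docetaxel and 50.8 and 20.1 CPM in media.

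Set against EV cabozantinib, a kinase inhibitor exposure, docetaxel gave 1 gene higher and 1 lower of 17506 (0.0114%). These were Gm45140, with 0 CPM in both cabozantinib libraries, and Rab43, with 21.5 and 45.9 CPM there (log2 -8.61 ± 0.71, edgeR adjusted p = 0.0226), the locus described above. The count was 79 and 46 without cabozantinib library 1 and 2, 118 and 31 without docetaxel library 1 and 2, and 14 with the replicate block. Tubulins had a median difference of 0.53, against -0.03 over all genes, and 3 of 12 were higher at an unadjusted p under 0.05, against 2.07% of all genes. These were Tubb2b (1.78, interval 0.63 to 2.92), Tubb6 (1.48, interval 0.41 to 2.56) and Tubb2a (1.22, interval 0.18 to 2.25), with an adjusted p of 1.00 each. For Tubb4b the interval of -0.49 to 1.56 included 0. The tubulin sum was 5625 and 3585 CPM in EV cabozantinib, and the first of these exceeds that of EV docetaxel 1.

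Against EV ex vivo IL-27, no gene of 17410 passed in edgeR's test, with 112 higher (0.643%) and 327 lower (1.88%) at an unadjusted p under 0.05, and DESeq2 called 6 higher and 28 lower. Leaving out 1 library gave 6 and 12 genes without docetaxel library 1 and 2 and 203 and 90 without IL-27 library 1 and 2, and the replicate block gave 4. None of the 12 tubulins had an unadjusted p under 0.05. Their median was 0.18, against -0.05 over all genes, and Tubb6 differed by 0.59 (interval -0.62 to 1.79) and Tubb4b by 0.04 (interval -1.32 to 1.40). The IL-27 libraries had tubulin sums of 6493 and 4563 CPM, which overlap the docetaxel sums. These comparisons share the docetaxel libraries with the comparison against media and are not independent of it. GC and length offsets were fitted only for EV docetaxel against EV media. The part of these trends in the comparisons with cabozantinib and IL-27, and between EV and IL27v, was not tested.

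The IL27v tumours are the other docetaxel samples of the series, and their libraries are not shared with the EV comparison. Tubulins had a median difference of 1.13 between docetaxel and media in IL27v, against -0.04 over all genes. They summed to 5092 and 5881 CPM in IL27v docetaxel and 2669 and 4700 CPM in IL27v media. Without docetaxel, sums were 5581 and 5005 CPM in IL27v anti-PD-L1 and 5649 CPM in IL27v IL-27. With cabozantinib they were lower, at 3885 and 4613 CPM, and at 4592 and 4577 CPM with IL-27 added. The difference between the EV and the IL27v effect had a median of -0.09 over 12 tubulins, against -0.02 over all genes. At an unadjusted p under 0.05, 1 of them (Tuba8) was lower and 0 were higher, against 5.45% and 1.32% of all genes. Tubb6 differed by -1.02 (interval -2.53 to 0.49), Tubb2b by -0.73 (interval -2.39 to 0.92), Tubb4b by -0.02 (interval -1.35 to 1.32) and Tuba1a by 0.38 (interval -0.78 to 1.53), and these 4 intervals include effects of equal and of unequal size. The interval of Tuba8, at -1.99, was -3.86 to -0.13 (unadjusted p = 0.0391, edgeR adjusted p = 0.6996). Within IL27v alone Tuba8 had 22.7 and 31.4 CPM in docetaxel, against 0.939 and 1.58 CPM in media (log2 4.48 ± 0.49, edgeR adjusted p = 0.0495). Tubb6 had 599 and 587 CPM in IL27v docetaxel, against 62.4 and 184 CPM in IL27v media. Ribosomal RNA genes took 30.4% of the counts of IL27v docetaxel 1 and 1.24% of IL27v docetaxel 2, and muscle genes summed to 28.4 and 925 CPM in IL27v docetaxel and 725 and 570 CPM in IL27v media, so tissue make-up differs between these libraries and its part in the values was not tested.

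Across all genes 5 of 19854 (0.0252%) differed between the EV and the IL27v docetaxel effect, each with the lower effect in EV. None passed with a replicate block or without EV media 2, EV docetaxel 1, EV docetaxel 2 or IL27v docetaxel 1, 1 passed without IL27v docetaxel 2, and 20, 180 and 103 passed without EV media 1, IL27v media 1 and IL27v media 2. They are genes of stratified epithelium, namely Krt16, a keratin of activated skin, Sprr2g and Evpl of the cornified envelope, and Itgb4 and Col17a1 of the hemidesmosome. Krt16 was at 0 in both EV docetaxel libraries and at 0.289 and 0.659 CPM in EV media, against 678 and 611 CPM in IL27v docetaxel and 2.30 and 0.651 CPM in IL27v media. Col17a1 had 2.20 and 1.31 CPM in EV docetaxel and 1.67 and 1.35 CPM in EV media, against 117 and 174 CPM in IL27v docetaxel and 4.35 and 3.56 CPM in IL27v media. The squamous list as a whole summed to 5381 and 4864 CPM in IL27v docetaxel and 76.8 and 10.9 CPM in IL27v media. A library without docetaxel, IL27v anti-PD-L1 1, also held 108 CPM of Krt16 and 1012 CPM over the squamous list. The part of squamous tissue in these differences was not tested.

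**Figure D5:**
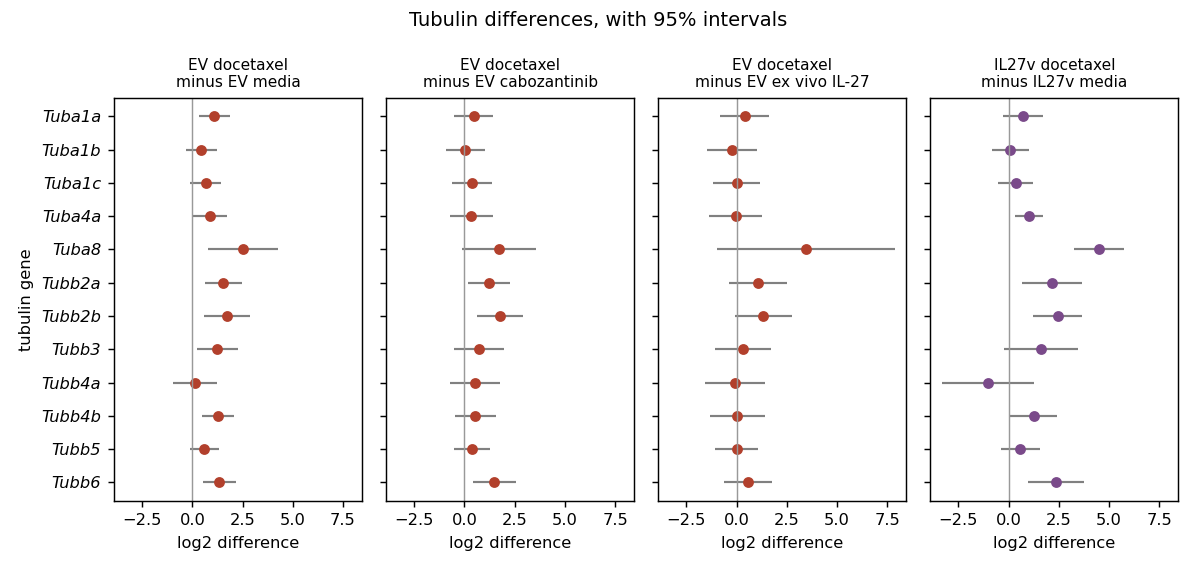
Log2 difference (points) with 95% intervals (lines) of the 12 tested tubulins in EV docetaxel minus EV media, EV cabozantinib and EV ex vivo IL-27, and in IL27v docetaxel minus IL27v media (purple). Tubb2a, Tubb2b and Tubb6 have intervals above 0 against media and against cabozantinib, and none of the intervals against ex vivo IL-27 excludes 0.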

How the data were processed

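The deposited values are estimated counts, whole numbers for 55401 Ensembl genes in 23 libraries. The tools that the submitters' processing notes name are cutadapt, HISAT2, StringTie and DESeq2, with build GRCm38. Their versions, the strand setting and the route to gene values were not given in the sources used here. Per the labels' protocols, libraries were stranded poly(A) libraries from RNA of integrity number 8 or more. Of these counts 143 genes hold the same nonzero value everywhere, so they are not plain read counts. Groups came from sample titles. The main fit used edgeR 4.0.16 in R 4.3.3 on the compared libraries only (TMM, filterByExpr, quasi-likelihood test, Benjamini-Hochberg over all genes; 2 residual and 5.47 prior degrees of freedom; biological coefficient of variation 0.456). Standard errors are the log2 difference over the root of F, and 95% intervals use the total degrees of freedom. GC and length offsets are loess fits (span 0.3, 99.9% of genes). Scripts were tested on simulated data. Replicates of each group differed beyond sampling noise.

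Members and lists were chosen with earlier results of these data known. The naming rule takes all tubulins and Ttc5, 12 genes in each direction (called genes by size, then smallest unadjusted p) with at least 2 CPM, a symbol and no overlap between groups, up to 4 genes per list of at least 1 CPM, and 11 fixed genes; genes quoted beyond it (Vim, Egr1 and markers by cell type) are descriptive. Alternatives included DESeq2 1.42.0, other scaling and filters, pooled fits, a replicate block, offsets and leaving out each library. Values of 2 marker genes are not reported here.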

Additional observations from a re-analysis of the deposited data

Results flagged for a closer look

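The docetaxel effect differed between EV and IL27v in 5 genes by a test of the interaction itself (EV effect minus IL27v effect, edgeR's quasi-likelihood test, 8 libraries). On the log2 scale the difference was -16.82 for Krt16, -11.01 for Sprr2g, -10.01 for Evpl, -5.45 for Itgb4 and -5.03 for Col17a1, with adjusted p of 0.0412, 0.0387, 0.0387, 0.0387 and 0.0492. The values for Krt16, Sprr2g and Evpl depend on the prior count, since some libraries are at or near 0. In each of the 5 genes both IL27v docetaxel libraries exceeded every other library of the fit, with 115 and 126 CPM of Sprr2g, 42.1 and 66.3 CPM of Itgb4 and 37.4 and 32.2 CPM of Evpl. IL27v anti-PD-L1 1, a library without docetaxel, held 108 CPM of Krt16 and 1012 CPM over the squamous list. The part of squamous tissue in these differences was not tested. With the replicate number as a block 0 genes passed. Without EV media 2, EV docetaxel 1, EV docetaxel 2 or IL27v docetaxel 1 no gene passed, and without IL27v media 1 there were 180.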

How the results depend on the processing

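Counts of called genes moved with the fit, whereas the tubulin median stayed above 0 in every alternative run. Against the 1 gene called in docetaxel minus media, 3 were called with no filter, 2 with 1 CPM in 2 libraries, 43 with DESeq2 (34 higher, 9 lower), 0 with all 23 libraries, 2 with GC and length offsets and 0 with the 3 overlapping loci summed. The length offset, the summed loci and the crossed pairing were chosen after seeing the data. With the replicate number as a block 35 genes were called (29 higher, 6 lower), and 5 with the block and the GC offset. The replicates share only a number, and the 1 minus 2 differences of the groups correlated at -0.26, so a crossed pairing was also run and called 2 genes. Leaving out each library in turn called 7 to 53, the lowest without EV docetaxel 2 and the highest without EV docetaxel 1, with 28 without EV media 1 and 47 without EV media 2. The lone library of an arm is assumed to vary like the other groups, here and in the next paragraph. The tubulin median of 1.17 was 0.60 with GC and length offsets.

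Against cabozantinib, 2 genes became 72 with DESeq2, 0 with all 23 libraries and 14 with the replicate block, and 31 to 118 with a library left out. Against ex vivo IL-27, 0 genes became 34 with DESeq2, 4 with the block and 1 with no filter, and 6 to 203 with a library left out. For the difference between the EV and IL27v effects, 5 genes became 335 with DESeq2, 371 with no filter and 0 with the replicate block, and 0 to 180 with a library left out.

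Of 77 genes followed, Rab43 lost its call with all 23 libraries (edgeR adjusted p = 0.825). Counted together with Gm45140, in the fit with the 3 loci summed, its locus was not called either (log2 0.51 ± 0.35, edgeR adjusted p = 0.714). In the other alternatives with 2 libraries a side Rab43 stayed called. Some of the 77 genes that the main fit did not call were called in an alternative, and these gains are not listed here. The signs that turned were Tubb4a at -0.32 with the GC offset, -0.29 with block and GC offset, -0.47 with GC and length offsets, and -0.18 to 0.50 with a library left out (lower without EV media 2 and without EV docetaxel 2); Ccnb1 at 0.13, 0.13 and 0.16 with the same 3 settings, and -0.59 to 0.23 with a library left out (higher without EV media 1 and without EV docetaxel 2); Ddit3 at -0.11 with GC and length offsets and -0.28 to 0.79 with a library left out (lower without EV docetaxel 2); and, with GC and length offsets, Tuba1b at -0.16, Tubg1 at -0.03, Bbc3 at -0.02, Bok at -0.03 and Abcb1b at 0.09. The cause was not tested. With 2 libraries a side the spread is estimated poorly, and levels under 1 CPM rest on fewer than 85 counts.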
